A study of Mus musculus with 36 samples.

Results

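DN3 thymocytes were compared with the early thymic progenitors that were sorted for high Flt3 (ETPFlt3hi, here ETP). The members were chosen by title: 6 arrays of DN3 and 6 of ETP, which makes 12 of the 36 arrays of the series. Each population had 3 arrays in deposit set 1 (replicates 1 to 3) and 3 in deposit set 2 (replicates 4 to 6). All 12 carry the same labels of strain (C57BL6), age (1 week), both sexes and normal development, and neither population carries a mutation or a treatment. The labels do not give the surface markers of the DN3 gate, and they give DN3 the same sample type wording as ETP, so the population was taken from the title and source name. The labels of set 1 give the thymus as tissue and describe each sample as pooled from several mice. Neither statement stands in the labels of set 2. The study set out to characterise early thymic progenitors and the cells that seed the thymus, with 8 populations in all. The 3 DN2Kit+ arrays of set 1 (here DN2) are used for 1 description below.

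Thymocytes that lack CD4 and CD8 pass through stages in which multipotent progenitors become T cells. ETP still hold myeloid and other lineage potential. Notch signals from the thymic epithelium then switch on T lineage factors, Bcl11b closes the alternatives, and DN3 cells rearrange the T cell receptor beta locus with the RAG recombinase. A beta chain that pairs with pre-T alpha (Ptcra) and the CD3 chains at the surface forms the pre-T cell receptor, whose signal lets the cell divide and move on.

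Levels are the deposited log2 values, and every difference is DN3 minus ETP on the log2 scale, taken within each set and averaged over the sets. A gene was called when limma's Benjamini-Hochberg adjusted p was under 0.05 and the difference at least 1, which is 2-fold. Of 18193 genes, 1064 were called (5.85%), 402 of them higher (2.21%) and 662 lower (3.64%) in DN3. The median difference over all genes was 0.05. Among the called genes, 28 were at least 16-fold higher and 32 at least 16-fold lower in DN3. The series calls its samples biological replicates without saying what was repeated, so p-values measure the spread between these samples, which may in part be technical. In sorted bulk samples, fewer cells of a type and less RNA per cell cannot be told apart.

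The genes with the largest rises included all 3 CD3 chain genes that lie side by side on chromosome 9, together with Ptcra. The 250 bases upstream of the start of these genes are shown because the 4 genes encode partners of the same receptor and rose together. The sequences are from RefSeq (GRCm38.p6), each printed 5′ to 3′ on the strand of its gene. Capitals mark every match, on either strand, to 6 short cores. These were TGGGAA for RBPJ, the DNA-binding partner of Notch, CTTTGA for the TCF and LEF factors, and CAGCTG for E proteins. The other 3 were TGTGGT for the RUNX factors, AGATAA for the GATA factors and AGGAAG for the ETS family.
Ptcra (chr17:46763713-46763962, reverse strand): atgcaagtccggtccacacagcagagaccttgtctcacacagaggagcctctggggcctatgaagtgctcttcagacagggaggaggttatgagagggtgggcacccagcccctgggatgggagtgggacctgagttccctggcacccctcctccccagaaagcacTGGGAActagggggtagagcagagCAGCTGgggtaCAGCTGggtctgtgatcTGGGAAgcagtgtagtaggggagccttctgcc
Cd3g (chr9:44980432-44980681, reverse strand): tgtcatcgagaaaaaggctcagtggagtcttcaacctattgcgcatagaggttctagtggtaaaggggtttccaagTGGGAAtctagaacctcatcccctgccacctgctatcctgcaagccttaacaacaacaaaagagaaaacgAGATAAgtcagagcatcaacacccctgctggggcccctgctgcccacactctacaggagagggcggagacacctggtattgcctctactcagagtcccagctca
Cd3d (chr9:44981536-44981785, forward strand): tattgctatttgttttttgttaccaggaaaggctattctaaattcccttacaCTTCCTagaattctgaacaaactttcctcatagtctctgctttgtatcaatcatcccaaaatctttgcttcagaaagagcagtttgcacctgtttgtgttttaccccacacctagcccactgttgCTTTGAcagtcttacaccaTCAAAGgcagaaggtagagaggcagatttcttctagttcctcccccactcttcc
Cd3e (chr9:45009612-45009861, reverse strand): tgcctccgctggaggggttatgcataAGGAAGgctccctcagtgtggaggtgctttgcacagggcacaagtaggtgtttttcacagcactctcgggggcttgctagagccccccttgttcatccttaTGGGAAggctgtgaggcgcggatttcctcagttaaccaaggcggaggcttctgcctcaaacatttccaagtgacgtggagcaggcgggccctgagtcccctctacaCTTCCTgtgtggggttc
The Ptcra sequence held 2 RBPJ cores and 2 E protein cores. The Cd3g sequence held 1 RBPJ core and 1 GATA core, the Cd3d sequence 2 TCF and LEF cores and 1 ETS core, and the Cd3e sequence 1 RBPJ core and 2 ETS cores. No core was shared by all 4 sequences. Such matches are common: the RBPJ core stood in 21.5% of the 298 genes called higher that have an upstream sequence in the table, in 19.8% of the 530 called lower, and in 21.1% of all 14367 genes with one. The E protein core stood in 14.8%, 12.1% and 12.5% of these groups, the TCF and LEF core in 12.1%, 10.9% and 12.3%, and the RUNX core in 9.73%, 11.9% and 11.7%. The GATA core stood in 7.72%, 7.36% and 7.46%, and the ETS core in 31.5%, 33.4% and 28.4%. A match is a description of letters and not evidence of binding.

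The label of each population was checked against its markers. Bcl11b, the zinc finger factor of T lineage commitment, stood at 12.24, 12.15 and 12.27 on the DN3 arrays of set 1, against 3.91, 4.70 and 4.56 on the ETP arrays. In set 2 it stood at 12.01, 12.14 and 11.98 in DN3, against 5.02, 5.47 and 4.81 in ETP. The groups lay far apart in both sets, with a difference of 7.39 ± 0.15 (SE; limma adjusted p = 1.86e-11), and all 4 probe sets of Bcl11b were called higher. Lef1, a partner of beta-catenin and T lineage factor, stood at 11.45 to 11.86 and 10.90 to 11.18 in DN3, against 6.24 to 6.60 and 6.36 to 6.80 in ETP (4.82 ± 0.12, adjusted p = 8.70e-11). In the other direction, Hmga2, a chromatin protein of fetal and neonatal progenitors, stood at 5.19, 4.74 and 5.01 in DN3 of set 1 against 10.49, 10.60 and 10.45 in ETP. In set 2 Hmga2 stood at 6.42, 5.77 and 5.88 in DN3 against 10.90, 10.87 and 11.12 in ETP, a difference of -5.24 ± 0.13 (adjusted p = 8.70e-11). The markers therefore run with the labels on all 12 arrays, as far as DN3 and ETP are to be told apart. Bcl11b and Hmga2 say little on DN3 against DN2. In set 1 Bcl11b averaged 11.70 in DN2 and 12.22 in DN3, and Hmga2 4.61 and 4.98. Lef1 stood further apart, at 7.23 in DN2 and 11.62 in DN3.

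The genes behind the sort describe the gates and are no test. This holds too where they are counted in the lists below. Flt3, Kit and Il2ra are among the cytokine receptors, and Il2ra is among the Notch pathway genes. Cd44 is among the homing genes and Flt3 among the dendritic genes. Flt3, the cytokine receptor named in the ETP label, stood at 3.53 to 4.23 in DN3 against 9.19 to 9.88 in ETP of set 1, and at 4.49 to 4.58 against 10.35 to 10.42 in set 2. Il2ra, which encodes CD25, the usual surface mark of DN2 and DN3 cells, stood at 12.01 to 12.39 and 11.59 to 12.05 in DN3 against 4.67 to 5.48 and 5.0 to 6.06 in ETP. Cd44, the adhesion receptor that is high on early progenitors, stood at 3.81 to 4.68 and 5.20 to 5.25 in DN3 against 8.73 to 8.97 and 8.51 to 8.84 in ETP. Kit, the stem cell factor receptor, differed by -2.63 ± 0.29, and DN3 replicate 6 read 7.92 where the other DN3 arrays of set 2 read 6.74 and 5.67. Without that array the Kit difference was -2.92.

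**Figure D1:**
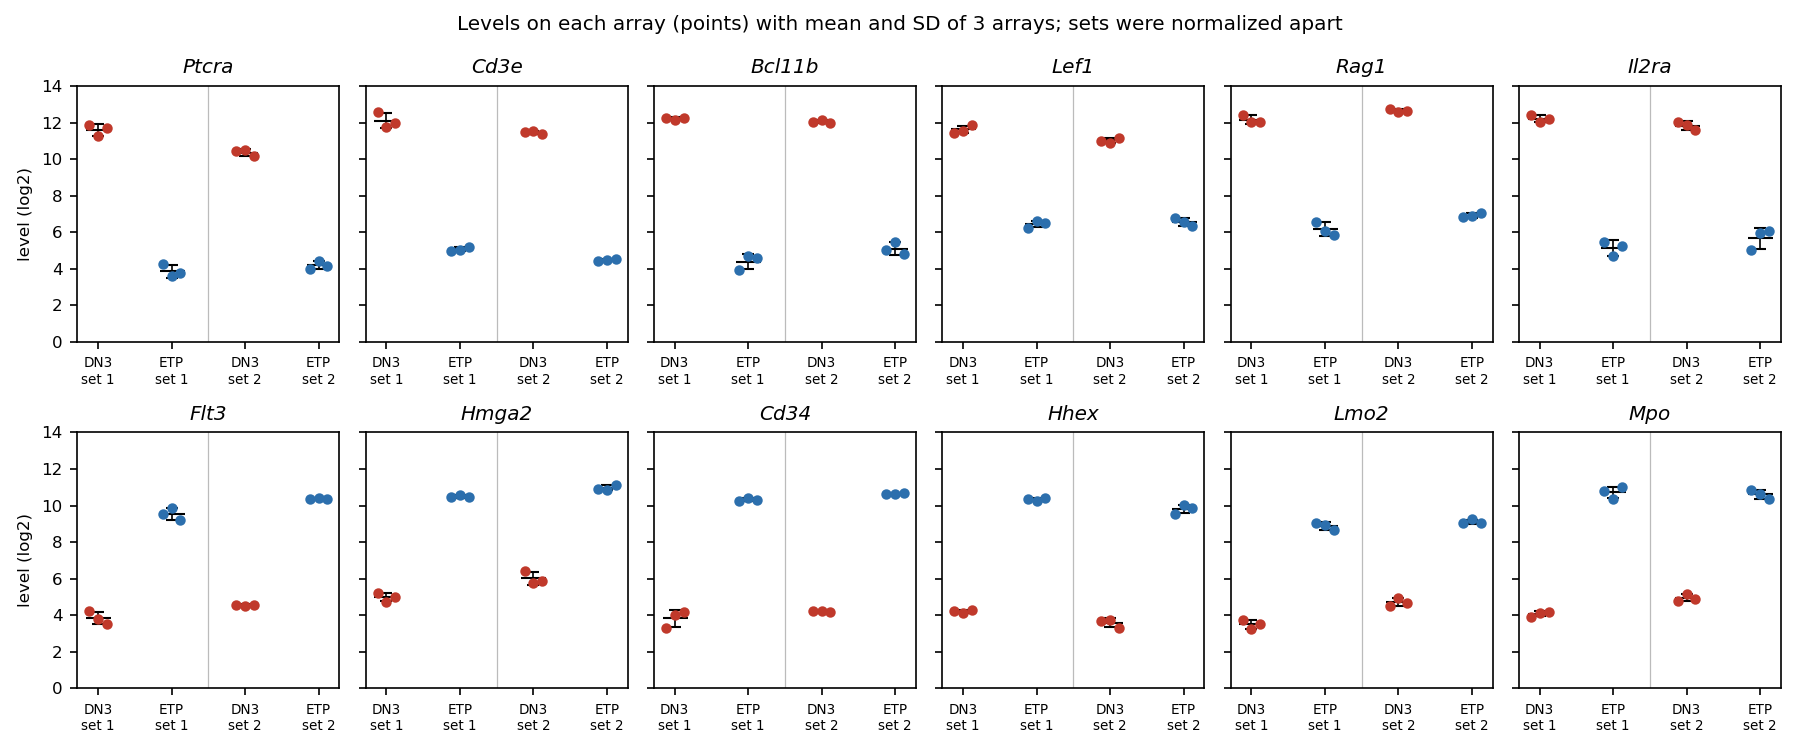
Level (log2) of 12 named genes on each array, with DN3 (red) left of ETP (blue) within each deposit set; points are arrays and bars show the mean and SD of 3 arrays. In every panel the DN3 and ETP points lie apart in both sets, for example Ptcra between 10.17 and 11.84 in DN3 and between 3.58 and 4.45 in ETP.

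The sets gave like results. Within set 1, 1117 genes were called (6.14%), 461 higher (2.53%) and 656 lower (3.61%) in DN3. Within set 2, 877 were called (4.82%), 329 higher (1.81%) and 548 lower (3.01%). Of these, 698 were called in both sets, which is 62.5% of the set 1 genes and 79.6% of the set 2 genes, and all 698 had the same direction. All 1064 genes called over both sets had the same sign in each set. Differences were larger in set 1 for 716 of them (67.3%), with a median set 2 to set 1 ratio of 0.872. Under quantile normalization over the 12 arrays the counts of calls turned round, at 967 within set 1 and 989 within set 2. Over 18193 genes the differences of the sets had a Pearson r of 0.837, which is across genes, and genes are not independent replicates. When the set dependence itself was tested as an interaction, limma called 0 genes (smallest adjusted p = 0.203), while 1008 (5.54%) had an unadjusted p under 0.05, 188 of the called genes among them. Cd3d was among those with the smallest p, at 7.08 in set 1 and 5.24 in set 2 (unadjusted p = 5.3e-05). The arrays of the populations did not overlap in either set for 2091 of all genes (11.5%) and for 979 of the called genes (92%). Array medians ran apart between the sets, so differences were taken within each set. Some ranges given for a population span both sets and so include the shift between them.

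**Figure D2:**
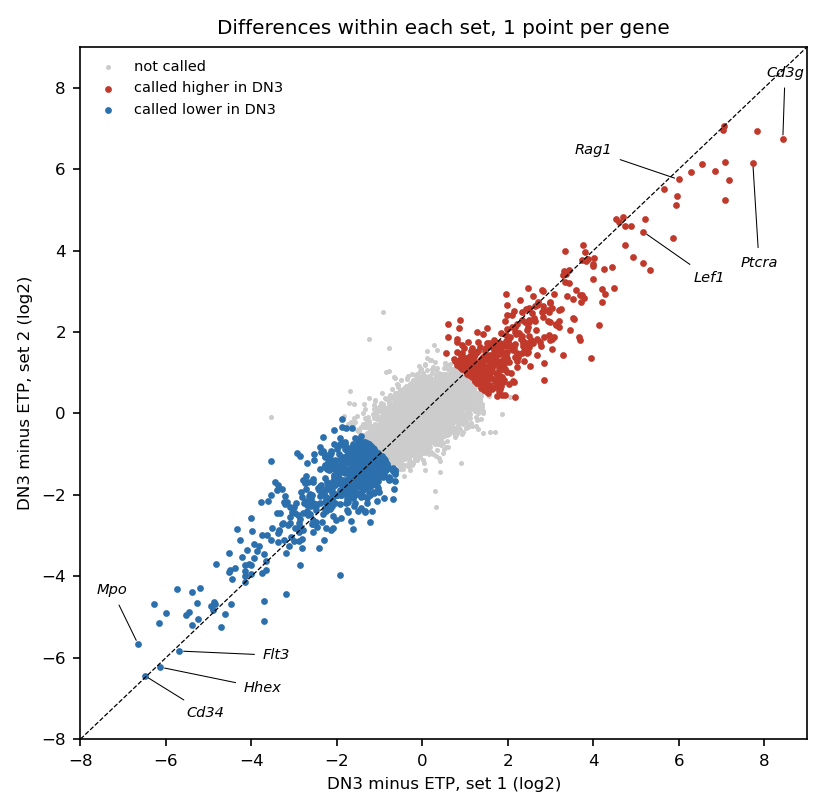
Difference DN3 minus ETP (log2) of every gene within set 1 (horizontal) and within set 2 (vertical), with genes called higher in DN3 in red, called lower in blue and not called in grey; the dashed line marks equal differences. The called genes lie in 2 arms along the line, and 716 of 1064 have the larger difference in set 1.

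DN3 arrays varied more among themselves than ETP arrays. The root mean square difference over genes between arrays of a population averaged 0.495 in DN3 and 0.366 in ETP of set 1, and 0.465 in DN3 and 0.320 in ETP of set 2. Between the populations it averaged 0.756 in set 1 and 0.677 in set 2. The array weights that limma estimates were lowest for DN3 replicates 1 and 4, at 0.49 each, and highest for ETP replicate 6, at 2.14.

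Genes of the pre-T cell receptor had the largest median difference of the 30 lists. Of 7 measured members, 6 were called higher and 0 lower, with a median difference of 6.16. Ptcra stood at 11.84, 11.25 and 11.68 in DN3 of set 1 against 4.25, 3.58 and 3.74 in ETP. In set 2 Ptcra stood at 10.43, 10.48 and 10.17 in DN3 against 3.99, 4.45 and 4.17 in ETP. The difference was 6.94 ± 0.15, or 123-fold (adjusted p = 2.72e-11). Cd3g, the CD3 gamma chain, had the largest rise of all genes whose arrays separate. It stood at 12.62, 12.80 and 12.67 in DN3 of set 1 against 4.31, 4.70 and 3.78 in ETP, and at 12.13, 11.98 and 11.74 in DN3 of set 2 against 4.85, 5.87 and 4.91 in ETP. The difference was 7.59 ± 0.20, or 192-fold (adjusted p = 1.23e-10). Cd3e (epsilon) differed by 7.0 ± 0.13 and Cd3d (delta) by 6.16 ± 0.15. Trat1, an adaptor that stabilises the receptor complex, stood at 7.22 to 8.31 and 6.48 to 7.28 in DN3 against 3.77 to 4.34 and 3.62 to 4.04 in ETP (3.33 ± 0.21, adjusted p = 3.31e-07).

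Tcra, here 1 probe set named for the T cell receptor alpha locus, stood at 7.66 to 7.80 and 7.60 to 8.03 in DN3 against 3.50 to 4.02 and 4.19 to 4.22 in ETP, a difference of 3.83 ± 0.11. DN3 cells are known for beta rearrangement, and a probe set of this kind cannot tell a rearranged transcript from one that starts within the locus. Cd247, the zeta chain, was the member not called, and its probe sets disagreed. The probe set that stood for it, the brightest of 4, read 9.87 and 9.76 in DN3 against 9.61 and 9.76 in ETP (mean of each set; difference 0.13 ± 0.12, adjusted p = 0.57). The other 3 were called higher, by 4.53 ± 0.22, 3.10 ± 0.17 and 1.12 ± 0.20. The largest of these read 9.59 and 10.20 in DN3 against 5.05 and 5.67 in ETP. Over all lists used here, 505 genes were measured and 379 of them not called, and 15 of the 379 had another probe set that was called (5 higher and 10 lower).

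Next come the genes that carry the receptor signal inside the cell. Of 21 measured members, 8 were called higher and 1 lower, with a median of 0.85. Themis, a thymocyte protein needed for selection signals, stood at 9.79 to 10.15 and 9.87 to 10.51 in DN3 against 2.87 to 3.28 and 4.22 to 4.42 in ETP. Its difference was 6.40 ± 0.13, or 84.2-fold, and all 4 probe sets were called. Rasgrp1, which activates Ras downstream of the receptor, differed by 3.89 ± 0.18. Lat, the membrane scaffold of the signal, stood at 10.34 to 10.94 over the 6 DN3 arrays against 7.95 to 8.37 over the 6 ETP arrays (2.65 ± 0.12). Sit1 (1.54 ± 0.18), the phosphatase Ptpn22 (1.51 ± 0.25), Prkcq, the theta form of protein kinase C (1.47 ± 0.13), the adaptor Pag1 (1.32 ± 0.10) and Ubash3a (1.02 ± 0.25) were also called higher. Ubash3a overlapped between the populations in set 2, where DN3 read 5.87 to 7.47 and ETP 5.69 to 6.25. Zap70, the kinase that binds the phosphorylated chains, differed by 0.88 ± 0.19 (adjusted p = 0.00755) and stayed under 2-fold. Its relative Syk was the member called lower, at 6.45 to 8.20 in DN3 against 8.38 to 9.09 in ETP (-1.44 ± 0.29, adjusted p = 0.00547), with all 4 probe sets called lower.

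T cell surface genes went both ways, with 5 of 17 measured members called higher and 2 lower (median 0.34). Thy1, the pan-T surface glycoprotein of the mouse, stood at 12.08 to 12.45 in DN3 against 6.70 to 8.37 in ETP (4.65 ± 0.22). Ctla4, an inhibitory receptor, stood at 10.12, 9.76 and 9.87 in DN3 of set 1 against 4.36, 4.76 and 4.66 in ETP. In set 2 Ctla4 stood at 7.71, 8.57 and 8.17 in DN3 against 4.46, 4.64 and 4.82 in ETP. Its difference was thus 5.33 in set 1 and 3.51 in set 2 (unadjusted p = 6.1e-05 for the set dependence, adjusted p = 0.203). Its neighbour Cd28, the costimulatory receptor, differed by 3.64 ± 0.28, Ly6d by 2.48 ± 0.15 and Slamf6 by 1.30 ± 0.17. Cd81, a tetraspanin, fell by 2.17 (SE 0.16), and Cd7 fell by 1.80 (SE 0.18). Cd5, whose level follows receptor signal strength, differed by 0.01 ± 0.17 (adjusted p = 0.984). The coreceptor genes Cd4, Cd8a and Cd8b1 differed by -0.03, 0.34 and 0.39, and none was called.

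Of 12 measured genes of V(D)J recombination 4 were called higher and 0 lower (median 0.28). Rag1, the catalytic subunit of the recombinase, stood at 12.43, 12.05 and 12.01 in DN3 of set 1 against 6.58, 6.08 and 5.86 in ETP. In set 2 Rag1 stood at 12.74, 12.58 and 12.64 in DN3 against 6.81, 6.86 and 7.05 in ETP. The difference was 5.87 ± 0.13, or 58.5-fold. Rag2, its partner and neighbour on chromosome 2, differed by 1.62 ± 0.17 or 3.08-fold, at 8.86 to 10.35 in DN3 against 7.29 to 8.61 in ETP. Lig4, the ligase that seals the joints, stood at 7.64 to 8.95 in DN3 against 3.81 to 4.61 in ETP (3.91 ± 0.18). Dntt, the terminal transferase that adds bases at the joints, was high in both populations, at 12.01 to 12.62 in DN3 and 8.75 to 11.51 in ETP (1.83 ± 0.25). Xrcc6, the Ku70 subunit of end joining, differed by 0.74 ± 0.08 (adjusted p = 6e-05), under 2-fold.

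Of 28 measured T lineage transcription factors, 11 were called higher and 1 lower, with a median of 0.39. Beside Bcl11b and Lef1, the largest differences were those of Ikzf3 (Aiolos) at 3.90 ± 0.37 and Spib at 3.15 ± 0.24. Ikzf3 varied widely among the DN3 arrays, at 8.04, 8.39 and 6.56 in set 1 and 8.67, 7.45 and 9.62 in set 2, against 3.38 to 3.42 and 4.61 to 5.35 in ETP. It was called through 1 of its 3 probe sets. Ets1 stood at 9.91 to 10.38 in DN3 against 7.05 to 7.49 in ETP (2.91 ± 0.12), with all 4 probe sets called, and its relative Ets2 differed by 2.73 ± 0.18. Tcf12, which encodes the E protein HEB, differed by 1.53 ± 0.12 with all 5 probe sets called. Gata3, the T helper and early T lineage factor, differed by 1.52 ± 0.17 and Id3, an inhibitor of E proteins, by 1.48 ± 0.14. Egr1 is described with the immediate early genes. Runx1 differed by 1.33 ± 0.10, and its relative Runx3 was the member called lower. Runx3 stood at 7.84 to 8.92 in DN3 against 9.19 to 10.19 in ETP, a difference of -1.48 ± 0.18 (adjusted p = 0.00012). Tcf3, which encodes the E proteins E12 and E47, differed by -0.25 ± 0.25 (adjusted p = 0.582).

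Notch pathway genes moved in both directions, with 4 of 26 measured members called higher and 2 lower (median -0.04). The 4 were Il2ra, which is a gene of the gates, Notch3, Dtx1 and Heyl. Notch3, a receptor and target of the pathway, stood at 9.25, 9.10 and 8.75 in DN3 of set 1 against 4.88, 5.62 and 5.10 in ETP. In set 2 Notch3 stood at 9.69, 8.56 and 8.67 in DN3 against 5.15, 5.03 and 5.52 in ETP (3.79 ± 0.21). Dtx1, an E3 ligase of the pathway, differed by 2.78 ± 0.26. Heyl, a repressor of the Hes and Hey family, varied among the DN3 arrays of set 1. Replicate 1 read 7.40, the other DN3 arrays 4.65 and 4.64, and the ETP arrays of that set 3.38 to 3.54. In set 2 Heyl read 4.31 to 5.59 in DN3 against 3.72 to 3.89 in ETP. Its difference was 1.54 ± 0.42 (adjusted p = 0.0304), with 1 of 3 probe sets called. It stayed called without DN3 replicate 1, at 1.08 (adjusted p = 0.00346). The call was lost (adjusted p from 0.0579 to 0.0684) when any 1 ETP array, or DN3 replicate 4 (0.0637), was left out.

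Notch1, the receptor that drives the T lineage, was high in both populations, at 11.30 to 11.72 in DN3 against 10.91 to 11.09 in ETP, and its difference of 0.53 ± 0.10 (adjusted p = 0.00363) was under 2-fold. Hes1 and Myc, classical targets, differed by 0.16 ± 0.18 and 0.22 ± 0.09 and were not called. Nrarp, a target that feeds back on the pathway, fell by 1.44 (SE 0.18), at 6.54 to 7.66 in DN3 against 8.08 to 9.01 in ETP. Mfng, a glycosyltransferase that modifies Notch, fell by 1.10 (SE 0.14). Notch2 differed by -0.95 ± 0.12 (adjusted p = 0.00014), under 2-fold.

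Of 28 measured cytokine and growth factor receptors, 6 were called higher and 10 lower (median -0.19). These counts include genes of the gates, Il2ra among the higher and Flt3 and Kit among the lower. Il7r, which carries survival signals in thymocytes, stood at 9.95 to 10.27 in DN3 against 7.94 to 9.08 in ETP (1.55 ± 0.18). The receptors of transforming growth factor beta split: Tgfbr1 (1.30 ± 0.12) and Tgfbr3 (1.03 ± 0.21) were called higher and Tgfbr2 (-1.54 ± 0.18) lower. Those of interferon gamma split as well, with Ifngr1 at 1.13 ± 0.15 and Ifngr2 at -1.26 ± 0.17. Csf1r, the macrophage growth factor receptor, stood at 3.01 to 3.36 and 3.41 to 4.37 in DN3 against 8.62 to 9.70 and 8.62 to 8.83 in ETP, a difference of -5.46 ± 0.20. Il1r1 (-3.58 ± 0.25), Il18r1 (-2.98 ± 0.17), Csf2rb (-2.44 ± 0.19) and Il4ra (-1.57 ± 0.18) were lower too. Il2rb, which pairs with Il2ra in the interleukin 2 receptor, differed by -0.07 ± 0.11 and was not called.

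Of 31 measured progenitor transcription factors 13 were called lower in DN3 and 0 higher, with a median of -0.72, and 23 of the 31 lay below 0. Hhex, a homeobox factor of early progenitors, stood at 4.23, 4.13 and 4.26 in DN3 of set 1 against 10.36, 10.23 and 10.42 in ETP. In set 2 Hhex stood at 3.70, 3.74 and 3.30 in DN3 against 9.55, 10.01 and 9.88 in ETP. It fell by 6.18 (SE 0.11), which is 72.6-fold. Lmo2, an adaptor of blood stem cell complexes, fell by 4.88 (SE 0.12), at 3.27 to 3.74 and 4.51 to 4.97 in DN3 against 8.64 to 9.07 and 9.02 to 9.24 in ETP. Its partner Lyl1 fell by 4.27 (SE 0.22) and Tal1 by 1.42 (SE 0.12). Mef2c fell by 4.40 (SE 0.18, all 5 probe sets), Bcl11a by 3.75 (SE 0.20, 5 of 7 probe sets), Meis1 by 3.63 (SE 0.25), Mycn by 3.19 (SE 0.12) and Hoxa9 by 3.12 (SE 0.22). Erg (-1.84 ± 0.12), Etv6 (-1.47 ± 0.11) and Spi1, which encodes the myeloid factor PU.1 (-1.27 ± 0.19), were lower as well, and Nfe2 is given with the platelet genes. Spi1 stood at 5.61 to 7.17 in DN3 against 7.17 to 8.05 in ETP, apart within each set. Gata2 (-0.08) was not called, nor was Id2 (-0.38 ± 0.15), the E protein inhibitor of innate lymphoid cells.

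Of the fetal-type growth genes, the list that holds Hmga2, it was the 1 of 10 measured members that was called, and the median of the list was 0.08. The list has 13 genes, and H19, Igf2bp2 and Hmga1 were not measured. Probe sets that name no gene or several were left out, so the count does not speak for these genes. Igf2bp3 differed by -0.64 ± 0.12 (adjusted p = 0.004), under 2-fold, through its brightest probe set. Another of its probe sets was called lower (-1.16 ± 0.28, adjusted p = 0.0176). Igf2 differed by 0.81 ± 0.26 (adjusted p = 0.067).

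Homing and adhesion genes had 7 of 22 measured members called lower and 0 higher (median -0.55). Cd44, a gene of the gates, is among the 7. Cd34, the sialomucin of blood progenitors, had the largest fall of all genes whose arrays separate. Cd34 stood at 3.30, 4.02 and 4.19 in DN3 of set 1 against 10.27, 10.41 and 10.32 in ETP, and at 4.22, 4.25 and 4.17 in DN3 of set 2 against 10.61, 10.65 and 10.71 in ETP. It fell by 6.47 (SE 0.14), which is 88.6-fold. Itgb7 (-2.54 ± 0.14) and Itgb2 (-1.41 ± 0.20), integrin beta chains, and Emb (-1.80 ± 0.24) were lower. Ccr9, the chemokine receptor that draws progenitors into the thymus, stood at 6.68 to 7.70 in DN3 against 8.32 to 9.40 in ETP (-1.82 ± 0.18). Robo1 differed by -2.50 ± 0.42, and by -2.91 without DN3 replicate 1, which read 6.64 where the other DN3 arrays of set 1 read 3.86 and 4.52.

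Genes of granulocyte and monocyte progenitors had 8 of 26 measured members called lower and 1 higher, with a median of -0.50. Mpo, the granule peroxidase, stood at 3.92, 4.11 and 4.18 in DN3 of set 1 against 10.79, 10.38 and 11.00 in ETP. In set 2 Mpo stood at 4.78, 5.16 and 4.90 in DN3 against 10.84, 10.64 and 10.37 in ETP, and it fell by 6.16 (SE 0.13). The other primary granule genes were low in both populations: Elane differed by 0.03 ± 0.11 at 2.84 to 4.35, and Prtn3 by -0.14 ± 0.13. Tyrobp, an adaptor of myeloid and NK receptors, fell by 4.98 (SE 0.24), Cd33 by 4.17 (SE 0.13), Ncf1, a subunit of the phagocyte oxidase, by 3.59 (SE 0.31) and Ifitm3 by 3.31 (SE 0.15). Ctss, the lysosomal cathepsin S and not a member of the list, fell by 5.48 (SE 0.13), by 6.28 in set 1 and 4.68 in set 2. Pld4 was the member called higher, at 8.95 to 9.85 in DN3 against 5.85 to 7.23 in ETP (2.66 ± 0.19). Late neutrophil genes had 0 of 11 measured members called, beside 5.85% of all genes. In limma 0 of the 11 had an unadjusted p under 0.05, and their median difference was 0. Cxcr2 and Lcn2 had the smallest p of that list (adjusted p = 0.317 and 0.431).

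Genes of NK and innate lymphoid cells had 7 of 23 measured members called lower and 1 higher (median -0.06). S100a4 fell by 5.66 (SE 0.31), its relative S100a6 by 3.30 (SE 0.14) and Rgs1, a regulator of G protein signals, by 4.26 (SE 0.33). S100a4 varied in DN3 of set 1, at 3.48, 2.37 and 4.62, against 9.28 to 9.93 in ETP. Klrd1 (-1.45 ± 0.26) and Nkg7 (-1.43 ± 0.18) were lower. Gzma, a granzyme of cytotoxic cells, went the other way, at 10.78, 11.24 and 11.42 in DN3 of set 1 against 5.27, 4.66 and 3.89 in ETP, and at 11.60, 11.04 and 11.50 in DN3 of set 2 against 4.63, 6.18 and 4.92 in ETP. Its difference was 6.34 ± 0.29, or 81.0-fold (adjusted p = 2.01e-08). Of 6 measured gamma delta T genes 2 were called higher: the gamma chain segment Trgv4, at 10.84 to 11.44 in DN3 against 6.13 to 6.82 in ETP (4.68 ± 0.14), and Il17rb (1.94 ± 0.13).

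Other genes of the largest rises and falls lay outside these groups. Mpzl2, an adhesion molecule of the immunoglobulin family, stood at 9.62 to 10.16 and 10.21 to 10.41 in DN3 against 2.55 to 3.03 and 3.0 to 3.57 in ETP, a difference of 7.05 ± 0.14. Dgkeos, an RNA named for the strand opposite Dgke, differed by 6.45 ± 0.17, and Gbp8, a guanylate-binding protein, by 6.10 ± 0.15. Bex6 fell by 5.29 (SE 0.15), Adgrg3, an adhesion G protein-coupled receptor, by 5.18 (SE 0.18), Slc35d3 by 5.15 (SE 0.24) and Ifitm1 by 5.02 (SE 0.13). Ifitm1, Ifitm2 (-1.53) and Ifitm3 lie next to each other on chromosome 7.

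In the DNA replication list 0 of 35 measured members were called by limma, with a median of -0.02, and 3 were higher and 8 lower at an unadjusted p under 0.05. Its smallest p-values were those of Uhrf1 (0.63 ± 0.09, adjusted p = 0.000669) and Mcm3 (-0.49 ± 0.11, adjusted p = 0.0109), and without a fold threshold 2 members were higher and 3 lower. The mitosis list lay slightly lower in DN3, with 29 of 31 members below 0, a median of -0.37 and 1 called (3.23%, beside 5.85% of all genes). At an unadjusted limma p under 0.05, 1 member was higher and 19 were lower. Without a fold threshold 7 were called lower. At that setting 2591 of all 18193 genes were called, 998 higher and 1593 lower, to set beside both lists. For an unadjusted p under 0.05 no count over all genes is given here. The 1 mitosis gene called with the fold threshold was the checkpoint kinase Bub1 (-1.03 ± 0.25, adjusted p = 0.0151). Bub1 overlapped between the populations in set 2, where DN3 read 7.90, 6.41 and 7.30 and ETP 7.89, 8.32 and 7.87. Its call was lost without DN3 replicate 1 (-0.86) or 5 (-0.83) or ETP replicate 5 (-0.96), with either set alone, and under quantile normalization (-0.97). Of 21 measured G1 genes 3 were called higher and 1 lower. Ccnd1 (cyclin D1) stood at 5.54 to 7.24 in DN3 against 9.25 to 9.66 in ETP and fell by 3.02 (SE 0.21). Cdkn1a, the p21 inhibitor, stood at 8.48 to 9.45 in DN3 against 5.62 to 7.27 in ETP (2.64 ± 0.24), and E2f2 (1.60 ± 0.19) and Cdkn2c, the p18 inhibitor (1.10 ± 0.16), were higher.

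Survival genes had 0 of 16 measured members called higher and 1 lower, a share of 6.25% beside 5.85% of all genes. The 1 was Fasl, the death ligand, at 3.21 to 4.45 in DN3 against 8.07 to 8.66 in ETP (-4.77 ± 0.19). Bcl2 differed by 0.85 ± 0.13 (adjusted p = 0.000775) through its brightest probe set, and 3 of its 5 probe sets were called higher. Of 16 genes of DNA methylation and chromatin, Dnmt3b alone was called through its brightest probe set, and it fell by 1.49 (SE 0.10). Smarca2 differed by -0.92 ± 0.27 (adjusted p = 0.0453) through its brightest probe set, and another of its probe sets was called lower (-1.38 ± 0.10). Glycolysis genes had 2 of 17 members called higher, Ldhb (1.41 ± 0.13) and Pfkp (1.05 ± 0.18), and 2 lower, the glucose transporter Slc2a3 (-1.58 ± 0.26) and the hexokinase Hk2 (-1.05 ± 0.16), with a median of -0.35. Of 11 measured MHC genes 4 were called lower and 0 higher (median -0.51). The class I genes H2-K1 (-1.67 ± 0.12) and H2-D1 (-1.64 ± 0.18) fell, as did H2-DMa (-1.63 ± 0.13) and Cd74 (-1.43 ± 0.26), which serve class II. H2-D1 was called through 4 of its 9 probe sets, and its difference was -0.66 when they were averaged. H2-K1 and H2-D1 are near-identical copies in part, and signal between such probe sets can be shared.

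**Figure D3:**
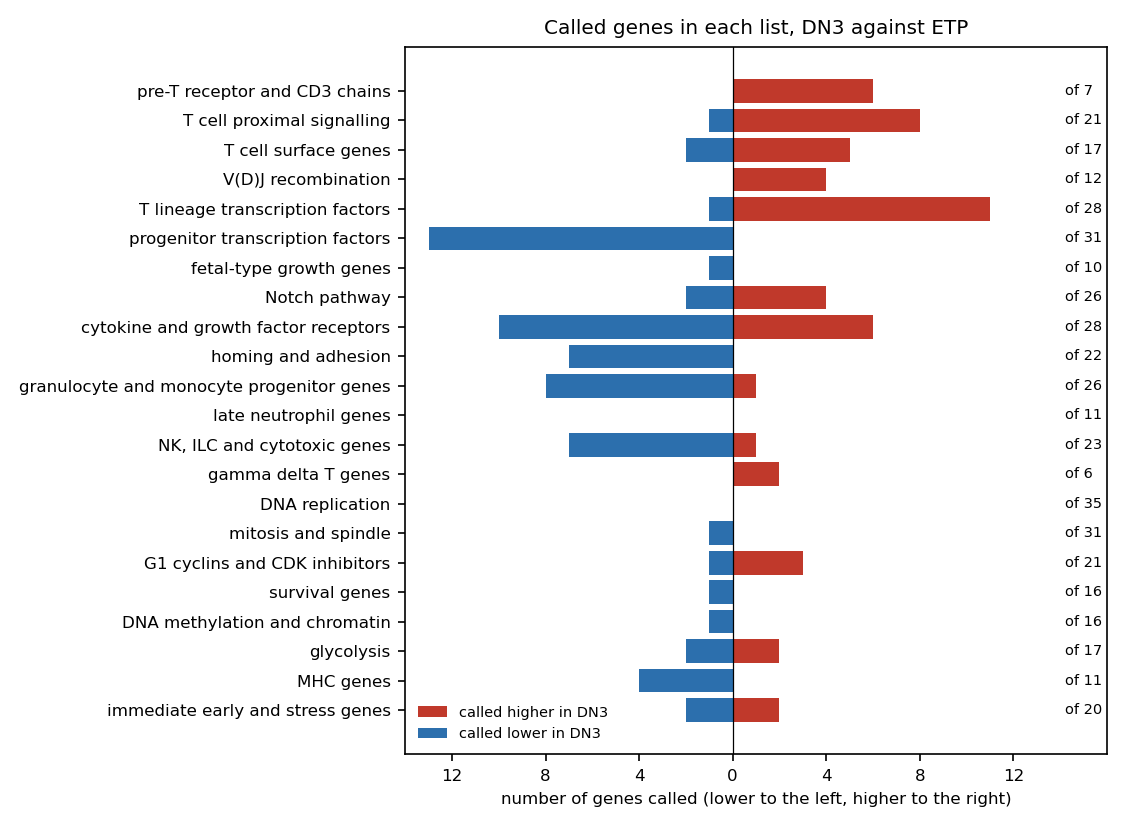
Number of genes called in each list, DN3 against ETP, with genes called higher in DN3 to the right (red) and called lower to the left (blue); the number at the right edge is the number measured. The pre-T cell receptor list (6 of 7) and the T lineage factors (11 of 28) lie to the right, and the progenitor factors to the left (13 of 31).

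Markers of other cells were counted to see what else the sorts could hold. C1qa, a complement gene of macrophages, read 3.28 to 4.28 in DN3 and 3.27 to 4.28 in ETP, and Foxn1, the factor of thymic epithelium, 4.24 to 5.75 in DN3 and 3.97 to 5.55 in ETP. Other members of their lists were high in 1 population, Csf1r in ETP and Epcam in DN3 (8.53 to 9.15, against 5.18 to 5.84 in ETP). The mean of the macrophage list was 4.24 to 4.32 in DN3 and 4.61 to 4.90 in ETP of set 1, and 4.83 to 5.09 in DN3 and 5.36 to 5.45 in ETP of set 2. The mean of the epithelial list was 5.10 to 5.45 in DN3 and 4.83 to 4.85 in ETP of set 1, and 5.74 to 6.14 in DN3 and 5.71 to 5.78 in ETP of set 2. The means over the late neutrophil list were 3.75 to 3.84 in DN3 and 3.79 to 3.94 in ETP of set 1, and 4.62 to 4.94 in DN3 and 4.67 to 4.82 in ETP of set 2. Of the B lineage list 3 of 18 measured members were higher in DN3 and 1 lower. The 3 were Rag1, which T cells share, Bst1 (2.32 ± 0.21) and Pou2af1 (1.40 ± 0.24), and Ighm fell by 1.12 (SE 0.19). Pou2af1 differed by 0.61 in set 1, where its arrays overlapped (adjusted p = 0.356), and by 2.19 in set 2 (adjusted p = 0.00145). Ighm was called through 2 of its 11 probe sets, and its difference was -0.12 when they were averaged (adjusted p = 0.401). The B cell factors Pax5 and Ebf1 and the receptor chain Cd79a differed by -0.05, 0.05 and -0.01. The mean of the B lineage list was 6.06 to 6.21 in DN3 and 5.38 to 5.48 in ETP of set 1, and 6.67 to 6.92 in DN3 and 6.04 to 6.09 in ETP of set 2.

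Of the list for CD4 and CD8 positive thymocytes, 4 of 12 measured members were higher (Aqp11 at 4.74 ± 0.17, Tcra, Arpp21 at 3.47 ± 0.18 and Slamf1 at 1.84 ± 0.30) and 3 lower (Cd69 at -2.68 ± 0.27, Ccr9 and Cpa3 at -1.26 ± 0.23), while Cd4, Cd8a and Cd8b1 were not called. The list mean was 6.14 to 6.61 in DN3 and 5.36 to 5.47 in ETP of set 1, and 6.49 to 6.72 in DN3 and 5.80 to 5.92 in ETP of set 2. Cpa3 is a mast cell protease, so the counts and mean of this list do not describe such thymocytes alone. The part of such thymocytes in the results was not tested. Over all genes 5.85% were called, a share to set beside the next counts. In the other lists the members called were lower in DN3, except Epcam (3.32 ± 0.16), the 1 of 13 epithelial genes called (7.69%). They were 2 of 12 dendritic genes (Flt3 and Cd74), 1 of 13 macrophage genes (Csf1r), 2 of 9 red cell genes (Car2 at -4.96 ± 0.21 and Hemgn at -3.06 ± 0.14), 2 of 11 platelet genes (Plek at -4.15 ± 0.18 and Nfe2 at -2.90 ± 0.23) and 2 of 14 stromal genes (Vim at -2.26 ± 0.14 and Pdgfrb at -1.04 ± 0.14).

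Of 20 measured immediate early and stress genes 2 were called higher and 2 lower (median -0.21). Btg2 was higher (1.16 ± 0.14), and Ier3 (-2.57 ± 0.29) and Zfp36 (-1.75 ± 0.27) fell, and the populations did not overlap in either set for these 3. Egr1, which early receptor signals induce, was called higher (1.58 ± 0.37, adjusted p = 0.0142). It stood at 6.80 to 7.61 in DN3 of set 1 against 5.39, 5.67 and 7.84 in ETP, so ETP replicate 3 lay above all DN3 arrays of its set, and at 7.47 to 8.43 in DN3 of set 2 against 5.43 to 6.15 in ETP. Its difference was 0.87 in set 1 (adjusted p = 0.42) and 2.30 in set 2 (adjusted p = 0.0221), and the call was lost with set 1 fitted alone (adjusted p = 0.542) and when tested against 1.5-fold (adjusted p = 0.225). Fos read 9.40 on ETP replicate 3 and was not called (-1.82 ± 0.60, adjusted p = 0.0715). The mean of the 20 genes was 6.06 to 6.40 in DN3 of set 1 and 6.53, 6.60 and 7.42 in ETP, with ETP replicate 3 the highest of its set. In set 2 it was 6.74, 6.94 and 7.44 in DN3, with replicate 5 the highest, and 6.68 to 7.03 in ETP. Without ETP replicate 3 the Egr1 difference was 1.97.

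DN2 cells, the stage between, were on arrays of set 1 only. Genes were therefore picked within set 2, where there is no DN2 array, and their levels read in set 1. Of the 329 genes called higher in set 2, 327 had the same sign in set 1, and DN2 lay nearer to DN3 for 194 (59%) and nearer to ETP for 135 (41%). Of the 548 called lower, 544 had the same sign, and DN2 lay nearer to DN3 for 280 (51.1%) and nearer to ETP for 268 (48.9%). The median step of the genes called higher was 1.07 between ETP and DN2 and 0.72 between DN2 and DN3. For the genes called lower these steps were -0.79 and -0.69.

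Genes of the same function differed in their place in this order. Bcl11b stood at 4.39 ± 0.42 in ETP, 11.70 in DN2 and 12.22 ± 0.06 in DN3 (SD, n = 3 each), so most of its rise lay before DN2. Cd3g stood at 4.26, 12.27 and 12.70, Il2ra at 5.13, 12.27 and 12.20, Gzma at 4.60, 10.95 and 11.15, and Thy1 at 7.78, 11.94 and 12.30 in the same order of stages. The other genes of the receptor differed from each other. Cd3e stood at 5.07 in ETP, 10.38 in DN2 and 12.10 in DN3, and Trat1 at 4.08, 8.45 and 7.82, so most or all of their rise lay before DN2. Ptcra stood at 3.86 ± 0.35 in ETP, 7.84 ± 0.72 in DN2 and 11.59 ± 0.30 in DN3, and Cd3d at 4.85, 8.20 and 11.93, about midway at DN2. Lef1 stood at 6.45, 7.23 and 11.62, and Ikzf3 at 3.40, 3.38 and 7.66, so their rises lay after DN2. Sit1 stood at 3.73 in DN2, within the 3.58 to 3.90 of ETP.

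Among genes lower in DN3, Flt3 stood at 9.53 in ETP, 3.87 in DN2 and 3.85 in DN3, Csf1r at 9.18, 3.17 and 3.17, and Hmga2 at 10.51, 4.61 and 4.98. These had completed their fall by DN2. Hhex stood at 10.34 ± 0.10, 8.73 ± 0.14 and 4.21 ± 0.07, Lyl1 at 8.82, 8.39 and 3.98, and Adgrg3 still read 8.35 to 8.51 in DN2 against 9.23 to 9.45 in ETP. Tyrobp read 9.47 to 9.66 in DN2, and Nfe2 8.86 to 9.12, as high as the 8.83 to 9.12 of ETP. Cpa3, a mast cell protease, stood highest in DN2, at 9.98 to 10.19, against 5.32 to 6.64 in ETP and 4.02 to 4.96 in DN3. Within the lists of at least 6 called genes, DN2 lay nearer to DN3 for 5 of 6 in the pre-T cell receptor list, 7 of 9 signalling genes, 6 of 7 T cell surface genes, 13 of 16 cytokine receptors, 6 of 7 homing genes, 6 of 8 NK and innate lymphoid genes and 5 of 7 genes of CD4 and CD8 positive thymocytes. It did so for 3 of 6 Notch pathway genes, 4 of 9 granulocyte and monocyte genes, 6 of 13 progenitor factors and 5 of 12 T lineage factors. Among the genes picked within set 2, the share was 59% for those called higher and 51.1% for those called lower. All these shares are descriptions and were not tested.

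**Figure D4:**
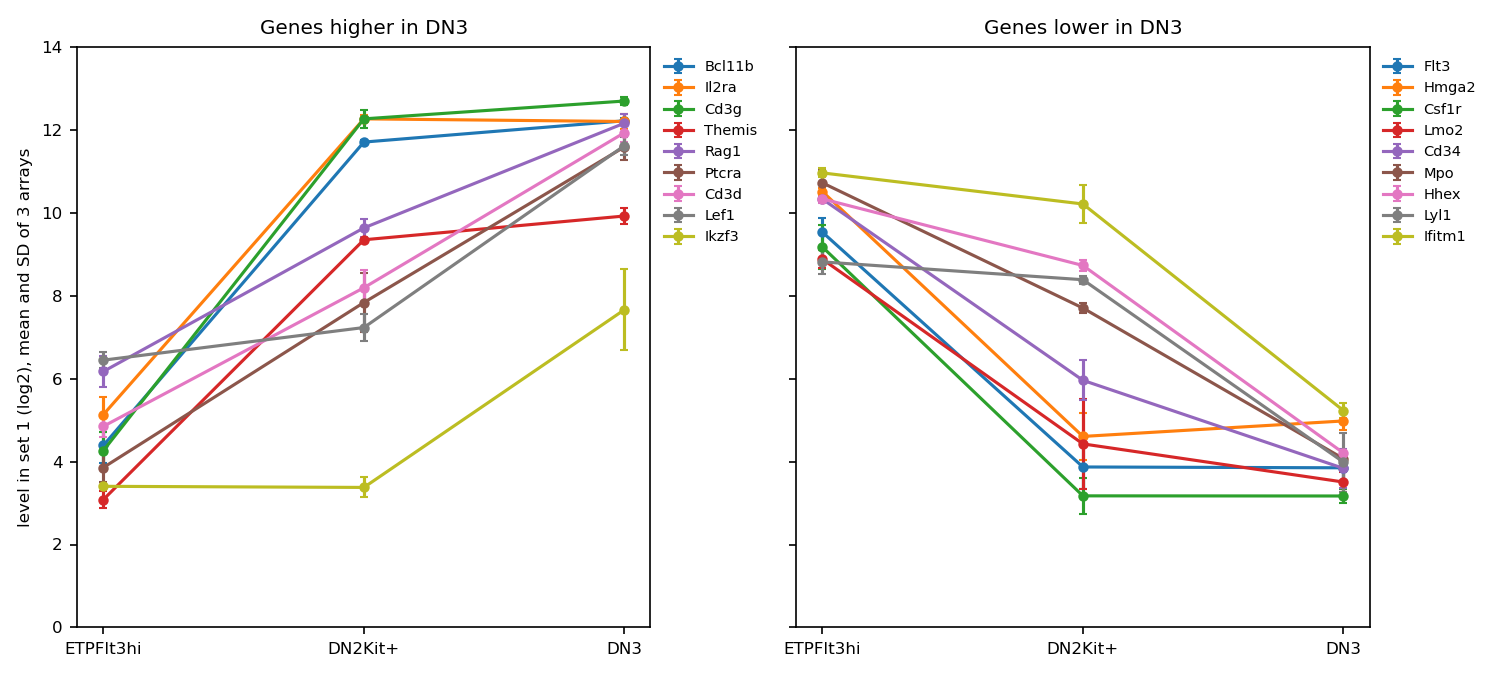
Level (log2) in set 1 of 9 genes called higher (left) and 9 called lower (right) in DN3, at ETPFlt3hi, DN2Kit+ and DN3; points are means of 3 arrays and bars the SD. Bcl11b, Il2ra and Cd3g are near their DN3 level at DN2, and Lef1 and Ikzf3 near their ETP level; Flt3, Csf1r and Hmga2 have fallen by DN2, while Ifitm1 and Lyl1 have not.

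Position on the chromosome was the last description. Genes were put in RefSeq order (GRCm38.p6), with the measured protein-coding genes only. On chromosome 9, Cd3g, Cd3d, Cd3e and Mpzl2 follow each other, with differences of 7.59, 6.16, 7.0 and 7.05. On the side of Cd3g the next genes were not called: Ube4a differed by 0.47, Atp5l by 0.37 and Kmt2a by 0.47. On the side of Mpzl2 its relative Mpzl3 differed by 0.53 and was not called, while the sodium channel subunits Scn2b (1.36) and Scn4b (3.01) and the protease Tmprss4 (1.32) were called higher. Of the 366 protein-coding genes called higher, 86 (23.5%) had a neighbour on either side called higher, as did 4.29% of all 16468 genes in this order. Of the 643 called lower, 123 (19.1%) had a neighbour called lower, as did 7.56% of all. The longest run held 5 genes called higher on chromosome 4: Tctex1d1 (1.49), Insl5 (1.82), Wdr78 (2.24), Mier1 (1.03) and Slc35d1 (1.12). Among the other runs were Gbp8, Gbp6 and Abcg3 on chromosome 5 (6.10, 3.75 and 4.02), Cd28 and Ctla4 on chromosome 1, Rag1 and Rag2 on chromosome 2, and, among genes lower in DN3, Gimap4, Gimap6 and Gimap7 on chromosome 6 (-2.62, -2.01 and -1.66). Related genes that lie side by side can share probe sequence, and this was not tested.

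**Figure D5:**
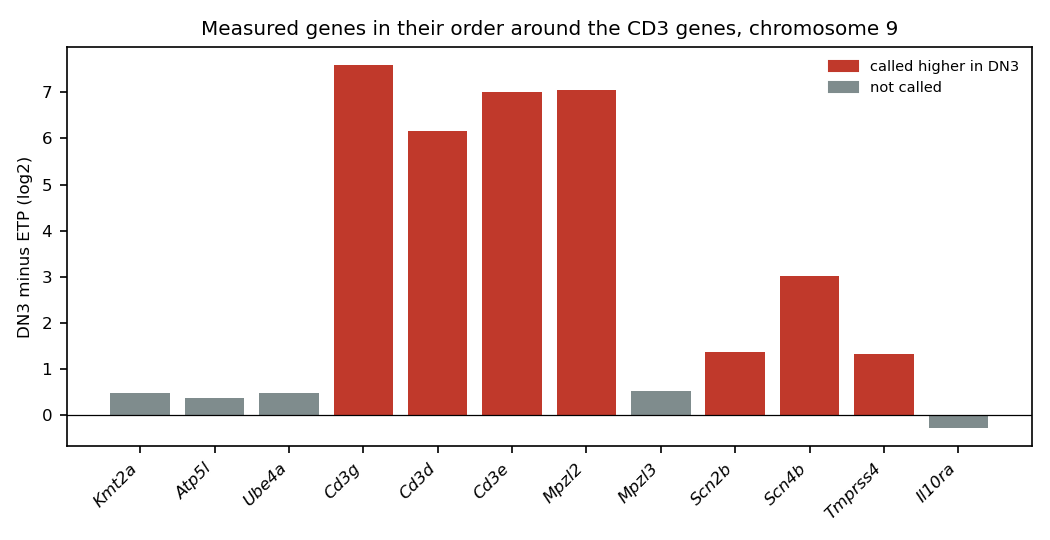
Difference DN3 minus ETP (log2) of 12 measured genes in their order on chromosome 9 around the CD3 genes; red bars were called higher in DN3 and grey bars not called. Cd3g, Cd3d, Cd3e and Mpzl2 stand at 6.16 to 7.59, and the genes to their left at 0.37 to 0.47.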

How the data were processed

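RNA of sorted cells was amplified, labelled with biotin and hybridised to 36 one-colour mouse arrays, per the labels' protocols. The deposited values were made with RMA, per the submitters' processing notes, and are read as log2 intensities; the log base and the RMA version are not given in the sources used here, nor are scan dates or slides. Array medians were 5.12 to 5.22 in set 1 and 5.84 to 5.95 in set 2, so the sets were taken as normalized apart. No depth can be given for arrays; precision is limited by how many there are.

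Of 45101 probe sets 34945 name 1 gene, 932 several and 9160 none, and 64 are controls. A gene was counted through its probe set with the highest mean over the 12 arrays (18193 genes, 9010 with several probe sets). For 204 probe sets the RefSeq table held no match and the symbol was kept. In R 4.3.3, limma 3.58.1 fitted 4 population-by-set means with lmFit and eBayes, with Benjamini-Hochberg adjustment over the 34945 probe sets. Tables and plots used Python 3.11.15, numpy 2.4.6, pandas 2.3.3 and matplotlib 3.10.9. The fit was tested on simulated data.

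The members, the 30 gene lists (560 genes, 54 of them not measured here) and the rule for named genes were chosen with earlier results of these data known. That rule keeps called genes whose arrays do not overlap in either set, and takes from these the top 12 in each direction by size of difference. It adds up to 4 called genes per list, again by size, or 2 by p-value where a list has no called gene, and also the 5 markers and the genes of the gates. Other members are examples of a list's count. Ctss and the genes described by stage or chromosome order outside the lists were named for those descriptions after their values were seen.

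Replicate numbers were shared by the populations. The deviations of same-numbered arrays from their group means correlated at -0.141 to 0.094, so the numbers were not taken as pairs.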

Additional observations from a re-analysis of the deposited data

Results flagged for a closer look

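Probe sets that name no gene or several genes were left out of the comparison, and 394 of these 10092 (3.90%) were called between DN3 and ETP in the same model, 183 higher and 211 lower. They are given by probe set name, because the annotation used here ties none of them to a single gene. The largest differences were those of 1448194_a_at (7.65 ± 0.23, with set means of 11.90 and 11.76 in DN3 against 4.11 and 4.25 in ETP) and 1452558_at (5.41 ± 0.12). In the other direction they were those of 1442812_at (-6.41 ± 0.27, with 3.62 and 5.81 in DN3 against 10.47 and 11.79 in ETP) and 1456893_at (-4.84 ± 0.19).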

How the results depend on the processing

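The count of 1064 called genes lay between 859 and 1067 under the other model terms, scalings, filters, probe set rules and weights, apart from the fold thresholds, and between 1036 and 1081 when 1 array at a time was left out; no gene was called in the opposite direction under any of them. Without a fold threshold 2591 genes were called, 998 higher and 1593 lower. Tested against 1.5-fold with treat, 754 were called, 606 within set 1 and 450 within set 2. With the mean of a gene's probe sets 890 were called, and 838 of the 1064 were shared. Fitted alone, set 1 gave 961 and set 2 887. The shared replicate numbers do not pair the samples, and with the replicate number as a block 1055 genes were called (399 higher and 656 lower), 1051 of them shared; the deviations of replicates 3 and 6 alone correlated best with their own number. The dependence on the set was called for 0 to 1 genes and 0 to 1 probe sets with 1 array left out, the 1 without DN3 replicate 1. Of 2242 values of the 90 named genes under the alternatives 2188 kept their direction and their side of the threshold, 52 kept the direction and lost the call, 2 gained it and 0 reversed. The changes lay in 16 genes, most often Heyl and Bub1. Bub1 was lost without DN3 replicate 1 (-0.86) or 5 (-0.83) or ETP replicate 5 (-0.96), with quantile normalization (-0.97), array weights (-0.97) or averaged probe sets (-0.81), with treat and with either set alone. Ighm was lost when its probe sets were averaged (-0.12, adjusted p = 0.401), with treat and with set 1 alone, Pou2af1 without the set term (adjusted p = 0.106), with treat and with set 1 alone, and Egr1 with treat (adjusted p = 0.225) and with set 1 alone (adjusted p = 0.542), while H2-D1 did not reach 2-fold when its 9 probe sets were averaged (-0.66). Without DN3 replicate 1, Cdkn2c (0.97), Pfkp (0.94), Hk2 (-0.89) and Ighm (-0.98) fell under 2-fold, and 1 Notch pathway gene was called lower. The cause of these changes was not tested. Levels near the bottom of the scale compress differences, so folds of genes that are dim in a population may be understated.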
